A study of Mus musculus with 6 samples.

Results

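Transcripts of 46 genes of glucose, glycogen and fructose metabolism were compared between livers of Atp7b-/- mice and livers of wild type mice. The 46 genes were listed by name, with earlier results of these data known but by no threshold on measured values, as members of glycolysis, gluconeogenesis, glycogen and fructose metabolism and of the Slc37 family of sugar phosphate transporters, and not by their measured values. Each matched 1 of the 41388 Ensembl gene identifiers in the counts table. A filter on low counts was passed by 12988 genes and by 45 of the 46, all but Fbp2, the muscle form of fructose bisphosphatase, which had at most 1.12 CPM in any library (CPM, counts after scaling for library size). The 3 Atp7b-/- libraries came from livers of mice that lack Atp7b, the ATPase that exports copper from hepatocytes and is defective in Wilson disease. The 3 wild type libraries came from livers that carried the gene. Both groups were of the C57BL x 129S6/SvEv background, were 6 weeks of age and ate at will a diet with 16 ppm copper, and the labels name no other allele and no treatment. The labels do not say which part of Atp7b was removed, nor whether each library came from its own mouse or from pooled mice. What the p-values measure is thus the spread among libraries, and part of it may be technical. Where n is given, it counts libraries.

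The liver buffers blood glucose. After a meal it takes glucose up, phosphorylates it and stores it as glycogen, and between meals it releases glucose made from glycogen, lactate and amino acids. The last step of both routes is the cleavage of glucose 6-phosphate inside the endoplasmic reticulum, by glucose 6-phosphatase (G6pc) after import by the transporter Slc37a4. Fructose enters below the control point of phosphofructokinase, through ketohexokinase (Khk).

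Total counts were 5919389 to 25973968 per library, and the 46 genes took 0.553% to 1.06% of them, lowest in Atp7b-/- replicate 3. Reads were paired-end in Atp7b-/- replicate 3 and wild type replicate 1 and single-end in the other 4, so layout (paired-end or single-end) was a term in the test. Libraries carry the number of their replicate, which only names them. Atp7b itself was measured at 19.2, 13.7 and 13.3 CPM in Atp7b-/- libraries 1 to 3, against 25.3, 85.2 and 59.7 CPM in wild type libraries 1 to 3, and every Atp7b-/- library lay below every wild type library (log2 ratio -1.73, SE 0.30, adjusted p = 0.02; not called without wild type replicate 3 or without Atp7b-/- replicate 1 or 2, at 0.0686, 0.0969 and 0.0664). The metallothionein genes Mt1 and Mt2, which respond to metal load, had log2 ratios of 3.66 and 3.98 (adjusted p = 0.0337 and 0.00101). The Mt1 call was lost without Atp7b-/- replicate 1 (0.214) or 3 (0.151), without wild type replicate 1 (0.145) and in the single-end libraries alone (0.133). Some libraries stood apart. Of the 3 libraries labelled female, wild type replicates 2 and 3 and Atp7b-/- replicate 3, the last had 0.482 CPM of Xist, an RNA of females, and 126 CPM of the Y-linked Ddx3y, and wild type replicate 3 held both RNAs (17.4 and 28 CPM). Atp7b-/- replicates 1 and 2 and wild type replicate 1 were labelled male. Single-end comparisons thus set Atp7b-/- libraries labelled male against wild type libraries labelled female. Genotype and labelled sex cannot be told apart there. The clock output gene Dbp stood at 0.999 CPM in Atp7b-/- replicate 3, against 48.6 to 319.9 CPM in the other 5 libraries. Wild type replicate 1 held muscle transcripts, with a summed 60.4 CPM of 5 marker genes, against 0.14 to 0.758 CPM in the Atp7b-/- libraries and 0.51 and 0.556 CPM in wild type replicates 2 and 3. All 8 hepatocyte markers were present and none was called, with a summed 49216 to 62866 CPM in Atp7b-/- and 74874 to 98509.9 CPM in wild type libraries. In whole liver, fewer cells of a type and less RNA per cell cannot be told apart, and the part of these library differences in the results was not tested.

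Among these genes 1 rose and none fell in Atp7b-/- livers. The gene that rose was Slc37a2, which encodes a sugar phosphate exchanger known mainly from macrophages and osteoclasts. In edgeR's quasi-likelihood test with layout as a term and Benjamini-Hochberg adjustment over all 12988 genes, calls were made where the adjusted p lay under 0.05, and 44 of the 45 tested members were not called. Over all genes 1.9% were called higher and 0.585% lower, 2.49% in all, so 1 of 45 is a share near that of all genes. Members called lower numbered 1 by DESeq2 and 0 by limma-voom. Under the alternatives, the share of all genes called was 5.93% by DESeq2, 2.7% by limma-voom, 4.44% with no count filter and 2.1% at a minimum count of 50. Without Atp7b-/- replicates 1, 2 or 3 it was 1.56%, 2.08% and 0.92%, and without wild type replicates 1, 2 or 3 it was 1.01%, 2.34% and 1.91%. At an unadjusted p under 0.05, 4 members were higher and 4 lower, which is 17.8% of members against 14.5% of all genes. The median log2 ratio (Atp7b-/- over wild type, as fitted by edgeR, throughout) was -0.14 over the members, with 20 positive and 25 negative values, and -0.0087 over all genes. Genotypes were separate in CPM in 2 members, Slc37a2 and Phka2, both with Atp7b-/- above, a state shared by 5.23% of all genes in that direction, 3.28% in the other and 8.51% in either.

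**Figure D1:**
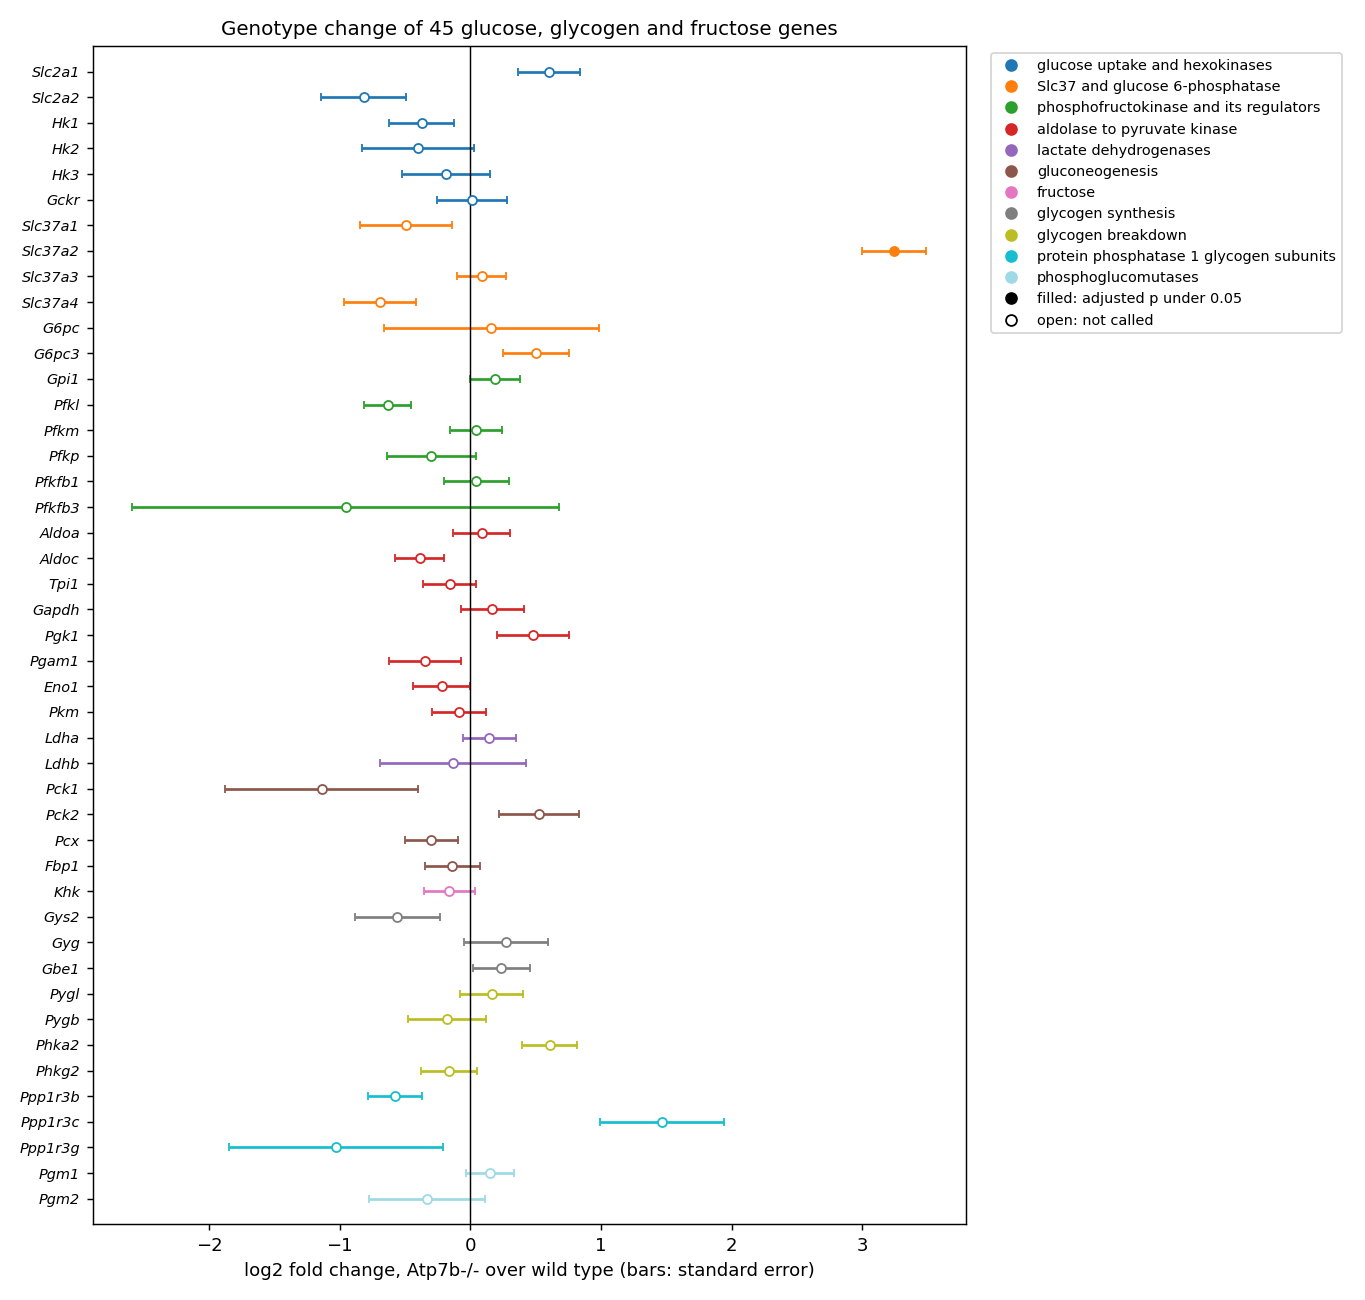
Log2 ratios (Atp7b-/- over wild type, x axis) of the 45 tested genes, ordered and coloured by role, with standard errors as bars. Filled points passed an adjusted p under 0.05; Slc37a2 at 3.24 is the filled point, and the other 44 lie between -1.14 and 1.47.

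The 4 Slc37 proteins sit in the endoplasmic reticulum or other inner membranes and differ in tissue. Slc37a2 (ENSMUSG00000032122, chromosome 9, 37227585 to 37255738, minus strand, GRCm38) was measured at 41.3, 29.2 and 31.8 CPM in Atp7b-/- libraries 1 to 3, against 2.83, 3.82 and 4.45 CPM in wild type libraries 1 to 3. The 3 Atp7b-/- libraries were close to each other and the lowest of them lay far above the highest wild type library. The counts behind these levels were 709, 208 and 924 in Atp7b-/- and 62, 45 and 24 in wild type replicates 1 to 3. The mean was 34.1 ± 6.39 CPM in Atp7b-/- and 3.7 ± 0.814 CPM in wild type livers (SD, n = 3 each), a fitted 9.48-fold higher level (log2 ratio 3.24, SE 0.25, edgeR adjusted p = 0.000715). The difference was as large within each layout, 2.93 in the single-end and 3.28 in the paired-end libraries on the scale of log2(CPM + 0.5). The call held in each of the 6 fits that left out 1 library (adjusted p 0.000981 to 0.0209). It was lost without the layout term (adjusted p = 0.0986) and with labelled sex in its place (0.372), fits in which no gene of the 12988 was called.

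Macrophage markers were not called, and osteoclast markers were not examined. The part of either cell type in the Slc37a2 result was not tested. All 10 Kupffer cell and macrophage markers were tested and none passed, with a summed 233 to 398 CPM in Atp7b-/- and 209 to 508 CPM in wild type libraries. The Kupffer cell lectin gene Clec4f was measured at 90, 72.4 and 71.5 CPM in Atp7b-/- libraries 1 to 3, against 65.6, 119 and 61.4 CPM in wild type libraries 1 to 3, and the genotypes overlapped. None of the 10 was at 0 in any library. Of 7 neutrophil and 8 lymphocyte markers 1 and 2 passed the filter, and none of these was called. The 8 endothelial, 7 stellate cell and 5 cholangiocyte markers that passed the filter were not called either, the last with a summed 29.2 to 78 CPM in Atp7b-/- and 21.8 to 51.4 CPM in wild type libraries. All 8 endothelial log2 ratios were negative (median -0.33). Of the 5 cholangiocyte ratios 3 were positive and 2 negative (median 0.74), and 2 of these markers had every Atp7b-/- library above wild type. An unadjusted edgeR p under 0.05 was found in 25% of the endothelial and 40% of the cholangiocyte markers, against 14.5% of all genes. Markers of proliferating cells did move: 4 of 5 tested were called higher, with a summed 69 to 71.5 CPM in Atp7b-/- and 5.18 to 9.14 CPM in wild type libraries, and their part in the Slc37a2 result was not tested. An annotated gene on the opposite strand, Gm48081, overlaps an exon of Slc37a2. Gm48081 was not among the genes with counts, and without a stated strand setting the reads of the pair cannot be told apart.

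The 250 bases before the annotated start of Slc37a2 are shown because it is the called member, beside those of Ppp1r3c, Pck1 and G6pc, whose levels differed widely among the libraries and which were picked after their values had been seen. The sequences are those of RefSeq on GRCm38.p6, 5′ to 3′ on the gene's strand. Capitals mark matches, on either strand, to the metal response element core (TGCACNC or TGCGCNC), the E-box (CACGTG), the D-box (TTACGTAA or TTATGTAA), the cAMP response element (TTACGTCA or TGACGTCA) and the AP-1 site (TGAGTCA). The last motif was added after the Slc37a2 sequence had been read.
Slc37a2 (chr9:37255739-37255988, - strand): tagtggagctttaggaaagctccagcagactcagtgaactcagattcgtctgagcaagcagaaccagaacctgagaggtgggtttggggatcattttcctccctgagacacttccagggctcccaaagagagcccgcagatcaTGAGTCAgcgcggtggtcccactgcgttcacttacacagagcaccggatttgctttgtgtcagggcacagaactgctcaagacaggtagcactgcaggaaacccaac
Ppp1r3c (chr19:36736605-36736854, - strand): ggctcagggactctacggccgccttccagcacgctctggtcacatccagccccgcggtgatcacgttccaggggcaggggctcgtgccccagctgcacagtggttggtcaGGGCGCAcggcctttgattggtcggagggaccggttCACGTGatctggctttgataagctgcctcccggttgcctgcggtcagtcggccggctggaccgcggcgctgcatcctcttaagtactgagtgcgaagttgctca
Pck1 (chr2:173152823-173153072, + strand): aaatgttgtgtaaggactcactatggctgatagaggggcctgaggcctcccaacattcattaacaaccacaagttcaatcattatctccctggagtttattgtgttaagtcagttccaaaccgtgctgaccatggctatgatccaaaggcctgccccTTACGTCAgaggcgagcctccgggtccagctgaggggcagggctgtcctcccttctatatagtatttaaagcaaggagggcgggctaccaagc
G6pc (chr11:101367466-101367715, + strand): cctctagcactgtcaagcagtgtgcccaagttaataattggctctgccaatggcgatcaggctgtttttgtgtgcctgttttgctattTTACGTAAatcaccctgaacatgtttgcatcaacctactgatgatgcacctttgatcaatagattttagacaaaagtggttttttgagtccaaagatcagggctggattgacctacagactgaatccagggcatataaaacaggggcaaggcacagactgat
In the Slc37a2 window the single match was an AP-1 site beginning 107 bases before the start, a motif found in 4.46% of all 32851 windows of this length. Ppp1r3c held an E-box, found in 6.02% of windows, and a metal response element core read on the opposite strand, found in 21.4%, and the pair did not overlap. The match in Pck1 was a cAMP response element (1.98% of windows), beginning 93 bases before the start, and that in G6pc a D-box (0.931%), beginning 162 bases before it. These are letter matches only.

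The other Slc37 genes and the glucose 6-phosphatases were not called. Slc37a4, the glucose 6-phosphate importer of liver whose loss causes a glycogen storage disease, was measured at 145, 211 and 77.7 CPM in Atp7b-/- libraries 1 to 3, against 206, 205 and 244 CPM in wild type libraries 1 to 3. Atp7b-/- replicate 3 was lowest and Atp7b-/- replicate 2 lay within the wild type range. Its log2 ratio was -0.69 (SE 0.27, adjusted p = 0.288), and it was -0.32 without Atp7b-/- replicate 3. Slc37a3, a partner of Atraid in lysosomes, differed little among all 6 libraries (24.7 to 32.6 CPM), and Slc37a1 was low, at 3.21 ± 1.63 CPM in Atp7b-/- and 4.13 ± 0.96 CPM in wild type livers (SD, n = 3 each). Set against each other as levels per kilobase of exon, the family was led by Slc37a4, at 50.5 ± 23.3 in Atp7b-/- and 76.4 ± 7.72 in wild type livers (CPM per kilobase, SD, n = 3 each). Slc37a2 stood at 5.13 ± 0.962 in Atp7b-/- and 0.557 ± 0.123 in wild type livers on the same scale, and Slc37a3 at 5.62 ± 0.286 in Atp7b-/- and 5.3 ± 0.734 in wild type livers. The Slc37a2 level thus lay below that of Slc37a3 in every wild type library, and in Atp7b-/- livers the 2 genes overlapped on this scale. Per kilobase of the longest transcript, the Atp7b-/- means were 5.74 for Slc37a2 and 7.55 for Slc37a3, so that by mean Slc37a2 was the lower on either length, with a wider gap on this one. G6pc3, the phosphatase of most other tissues, had a log2 ratio of 0.50 (SE 0.25, adjusted p = 0.408).

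**Figure D2:**
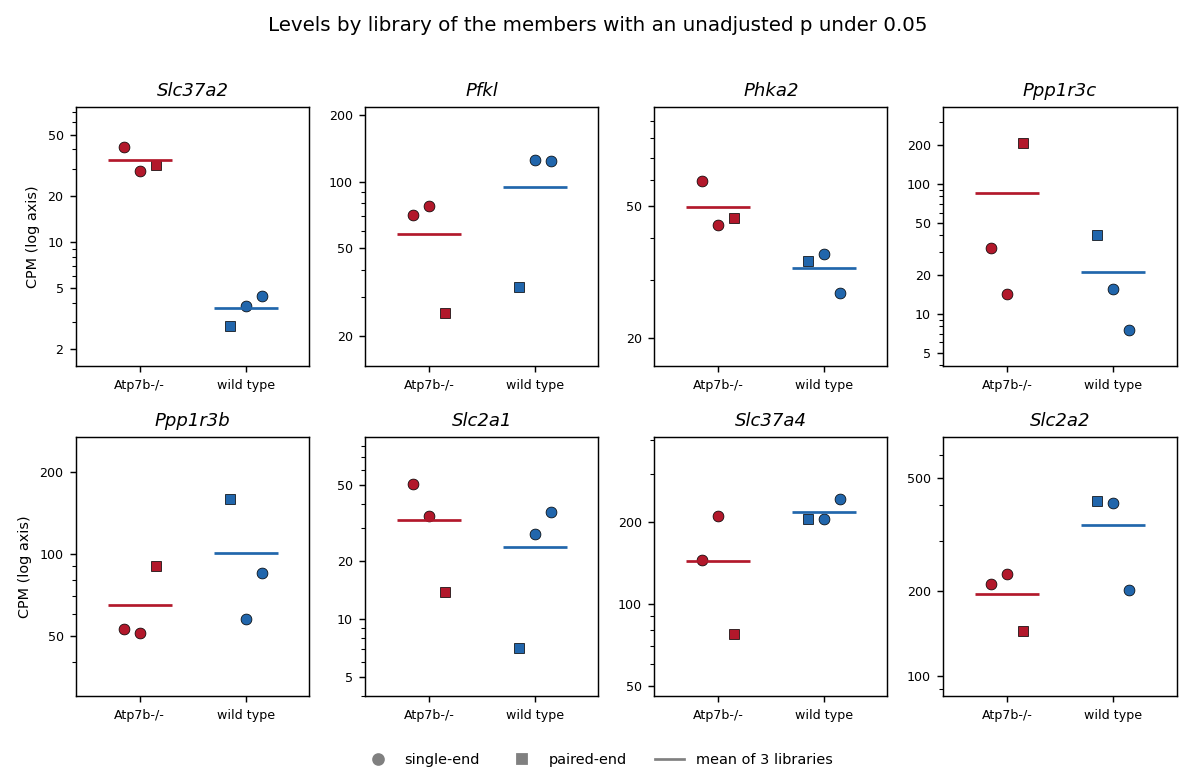
CPM by library (y axes, log scale) of the 8 genes with an unadjusted p under 0.05, with Atp7b-/- libraries left of wild type, circles for single-end and squares for paired-end libraries, and a line at the mean of 3. Slc37a2 and Phka2 show separate genotypes, and the other 6 genes overlap.

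None of the 6 genes of glucose uptake and the hexokinases was called. Slc2a2, the low-affinity glucose transporter of hepatocytes, was measured at 210.3, 229.7 and 144 CPM in Atp7b-/- libraries 1 to 3, against 414, 406 and 201 CPM in wild type libraries 1 to 3. All 3 Atp7b-/- libraries lay below wild type replicates 1 and 2, and wild type replicate 3 fell among them. The log2 ratio was -0.82 (SE 0.32, adjusted p = 0.292), and Slc2a2 passed the threshold without wild type replicate 3 (log2 ratio -1.16, adjusted p = 0.0428). Slc2a1, a glucose transporter of many dividing cells, was measured at 50.7, 34.4 and 13.9 CPM in Atp7b-/- libraries 1 to 3, against 7.04, 28 and 36.1 CPM in wild type libraries 1 to 3. The paired-end libraries were the lowest of each genotype, and Slc2a1 had a log2 ratio of 0.60 (SE 0.24, adjusted p = 0.285), with 0.39 within the single-end and 0.94 within the paired-end libraries. Erythroid markers had a summed 236 to 344 CPM in Atp7b-/- and 66.4 to 220.0 CPM in wild type libraries, with none of 5 tested called, and their part in the Slc2a1 values was not tested. The low-affinity glucokinase of hepatocytes is held in the nucleus by the regulatory protein Gckr, which averaged 221 ± 22.8 CPM in Atp7b-/- and 221 ± 90.2 CPM in wild type livers (SD, n = 3 each; log2 0.011, adjusted p = 0.992). The high-affinity hexokinases Hk1, Hk2 and Hk3 were low in liver, with means of 6.11, 1.75 and 5.05 CPM in Atp7b-/- and 7.92, 2.25 and 6.05 CPM in wild type livers. Their log2 ratios were -0.37, -0.40 and -0.18, none of them called.

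Phosphofructokinase commits sugar to glycolysis, and its liver subunit Pfkl had the smallest p among the members that were not called. Pfkl was measured at 70.8, 77.6 and 25.3 CPM in Atp7b-/- libraries 1 to 3, against 33.3, 125 and 124 CPM in wild type libraries 1 to 3. In each layout the Atp7b-/- libraries lay below the wild type ones, while across layouts the genotypes overlapped, with both paired-end libraries low. The log2 ratio was -0.63 (SE 0.18, adjusted p = 0.133); by DESeq2 it was -0.65 and called (adjusted p = 0.0176). The muscle subunit Pfkm averaged 31 ± 10.8 CPM in Atp7b-/- and 29 ± 5.4 CPM in wild type livers (SD, n = 3 each), with a log2 ratio of 0.045 (adjusted p = 0.947), and the platelet subunit Pfkp 3.65 ± 0.733 CPM in Atp7b-/- and 4.83 ± 2.92 CPM in wild type livers. Per kilobase of exon, Pfkl stood at 8.67 ± 4.25 in Atp7b-/- and 14.1 ± 7.9 in wild type livers and Pfkm at 9.27 ± 3.23 in Atp7b-/- and 8.68 ± 1.62 in wild type livers (CPM per kilobase, SD, n = 3 each). The 2 subunits overlapped in each genotype on this scale, with Pfkl above Pfkm in both single-end wild type libraries (18.8 and 18.6, against 10.1 and 9.1). Per kilobase of the longest transcript, Pfkl averaged 15.5 in Atp7b-/- and 25.3 in wild type livers, and Pfkm 10.8 in Atp7b-/- and 10.1 in wild type livers. Phosphoglucose isomerase (Gpi1), which feeds the enzyme, was measured at 181, 149.6 and 96.4 CPM in Atp7b-/- libraries 1 to 3, against 101, 137 and 129 CPM in wild type libraries 1 to 3. The paired-end libraries were again lowest, and the log2 ratio was 0.19 (SE 0.19, adjusted p = 0.719). Of the bifunctional enzymes that set the activator fructose 2,6-bisphosphate, the liver form Pfkfb1 was even across genotypes, at 22.4 ± 6.06 CPM in Atp7b-/- and 21.5 ± 4.23 CPM in wild type livers (SD, n = 3 each). The inducible form Pfkfb3 swung within each genotype, at 12.8, 118 and 8.71 CPM in Atp7b-/- libraries 1 to 3, against 89.6, 14.4 and 109 CPM in wild type libraries 1 to 3. Its SE of 1.63 on the log2 scale was the largest among the members, around a log2 ratio of -0.95.

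The shared trunk of glycolysis from aldolase to pyruvate kinase had 8 tested members and no call. The log2 ratios lay between -0.39 for Aldoc, the aldolase of brain, (SE 0.19, adjusted p = 0.398) and 0.48 for the phosphoglycerate kinase gene Pgk1 (SE 0.28, adjusted p = 0.479). Aldoc was measured at 29.3, 24.8 and 13.1 CPM in Atp7b-/- libraries 1 to 3, against 15.3, 36.1 and 38.9 CPM in wild type libraries 1 to 3, lowest in the paired-end libraries. Triose phosphate isomerase (Tpi1), the most abundant of the 8 per kilobase, was measured at 298, 318 and 279 CPM in Atp7b-/- libraries 1 to 3, against 318, 288 and 391 CPM in wild type libraries 1 to 3, and the genotypes overlapped. The remaining 5 members, the muscle-type aldolase Aldoa, Gapdh, the phosphoglycerate mutase Pgam1, the enolase Eno1 and the pyruvate kinase of non-hepatic tissues Pkm, had log2 ratios of -0.34 to 0.17. Lactate dehydrogenase A (Ldha), the subunit that dominates in liver, was measured at 594, 457 and 572 CPM in Atp7b-/- libraries 1 to 3, against 555, 424 and 492 CPM in wild type libraries 1 to 3. Its level overlapped between genotypes (log2 ratio 0.15, SE 0.20, adjusted p = 0.805), and the heart subunit Ldhb was low, at 0.874, 3.37 and 2 CPM in Atp7b-/- libraries 1 to 3, against 3.29, 2.04 and 1.11 CPM in wild type libraries 1 to 3 (log2 ratio -0.13, SE 0.56, adjusted p = 0.945).

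Several of these genes differed more between layouts than between genotypes. Gapdh, often used as a constant standard, had 252 CPM in paired-end Atp7b-/- liver and 296 CPM in paired-end wild type liver. In the single-end libraries it had 102 and 66.6 CPM in Atp7b-/- and 73.5 and 57.1 CPM in wild type livers. Pgk1 had 109 CPM in the Atp7b-/- and 105 CPM in the wild type library of the paired-end layout, against 13.1 and 11.8 CPM in the single-end Atp7b-/- and 9.69 and 4.82 CPM in the single-end wild type libraries. The layouts did not overlap for either gene. On the log2 scale, paired-end over single-end, the edgeR value was 3.47 (SE 0.28, adjusted p = 9.87e-05) for Pgk1 and 1.88 (SE 0.25, adjusted p = 0.000411) for Gapdh. Of the 45 tested members 7 were called higher and 14 lower in paired-end libraries. Over all genes the shares were 27.2% and 25.7%, or 52.8% in either direction, so layout calls were not particular to the members. The layout test was added after the data had been seen, as was the choice of Gapdh.

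Many genes of this trunk have near-identical copies elsewhere in the genome, and reads of 54 bases from such stretches could be counted for a copy or not at all. Of the 54-base stretches in the longest annotated transcript, 71.1% of those of Eno1, 67.9% of those of Pgk1, 41.3% of those of Pgam1 and 26.5% of those of Gapdh also occurred, letter for letter, in transcripts of other genes. At least 5% was shared in 10 members, all of them enzymes from Gpi1 to the lactate dehydrogenases, and 31 members shared none. Levels of the 10 are therefore uncertain as single genes. Eno1, which shared the most, had a layout value of 0.55 (SE 0.23, adjusted p = 0.0694) and was not called between layouts. How reads with several matches were counted is not stated, and the part of shared sequence in the layout differences was not tested. Exons of 17 members overlap another annotated gene, among them Pfkp with Pitrm1 and Tpi1 with Spsb2. The overlap was on the opposite strand in all but Pkm, where it was on the same strand, and Pfkm, where it was on both. Pitrm1 held 3150 counts over all 6 libraries, while Pfkp had at most 178 in any library.

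**Figure D3:**
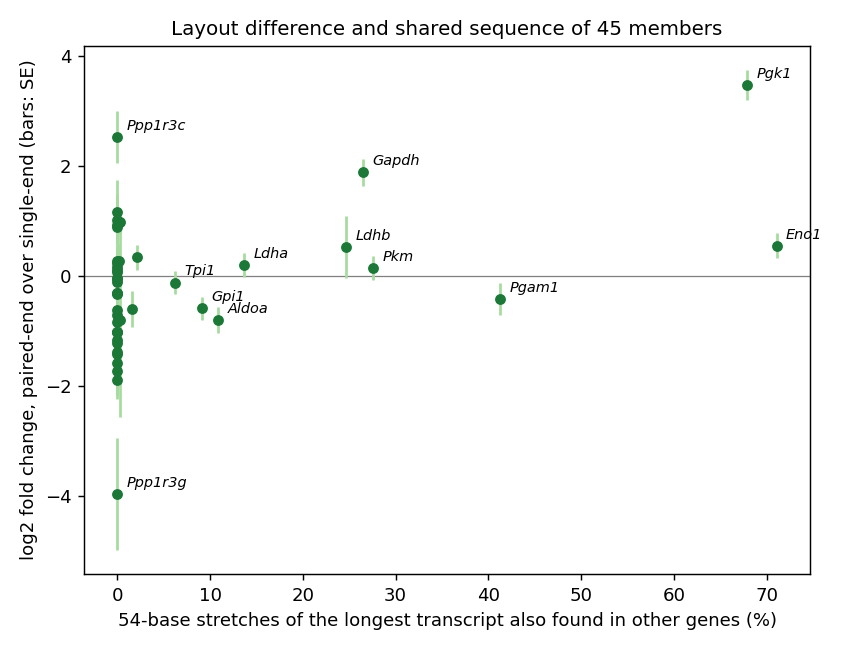
Share of 54-base stretches found in other genes' transcripts (x axis, percent) and log2 ratio of paired-end over single-end libraries (y axis, bars are SE) for the 45 tested genes. Pgk1 lies highest at 3.47, and Ppp1r3g, with no shared stretch, lowest at -3.96.

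Gluconeogenesis runs through pyruvate carboxylase (Pcx), the phosphoenolpyruvate carboxykinases (Pck1 in the cytosol, Pck2 in mitochondria), fructose bisphosphatase (Fbp1) and glucose 6-phosphatase. None of the tested genes of this route was called, and Pck1 and G6pc varied most within a genotype. Pck1 was measured at 1464, 3828 and 324 CPM in Atp7b-/- libraries 1 to 3, against 2672, 2777 and 3645 CPM in wild type libraries 1 to 3. The wild type libraries were close to each other, while the Atp7b-/- libraries included both the highest and the lowest of the 6. The log2 ratio of -1.14 (SE 0.74, adjusted p = 0.563) was -0.26 without Atp7b-/- replicate 3 and -0.28 in the single-end libraries alone. G6pc was measured at 396, 289 and 153 CPM in Atp7b-/- libraries 1 to 3, against 708, 151 and 151 CPM in wild type libraries 1 to 3. Within the single-end libraries both Atp7b-/- values lay above both wild type values, and in the paired-end libraries the order was the opposite. By label, the single-end libraries were male in Atp7b-/- and female in wild type, and the paired-end ones the reverse. G6pc thus lay at 289 to 708 CPM in libraries labelled male and at 151 to 153 CPM in those labelled female. A genotype change that differs by layout and a difference by labelled sex cannot be told apart here. The genotype difference was 1.16 in the single-end and -2.20 in the paired-end libraries on the scale of log2(CPM + 0.5), and the pooled log2 ratio was 0.16 (SE 0.82, adjusted p = 0.959). The test of the difference between layouts gave -3.39 for G6pc (SE 0.46, edgeR adjusted p = 0.16) and -2.76 for Pck1 (SE 0.80, adjusted p = 0.9). In that test, which equals a test of labelled sex beside layout and genotype, no member was called by edgeR, as against 0.0154% of all genes, and 3 of the 45 (G6pc, Pck1 and Gys2) had an unadjusted p under 0.05, against 4.57% of all genes. DESeq2 called 2 members, G6pc and Pck1, as did edgeR with no count filter, where 0.5% and 0.633% of all genes were called. Each paired-end library is fitted exactly in this test, so its own spread does not enter. G6pc and Pck1 were singled out here after their values had been seen.

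Pcx, Fbp1 and Pck2, the other tested enzymes of the route, were not called. Pcx was measured at 987, 796 and 322 CPM in Atp7b-/- libraries 1 to 3, against 359, 1237 and 1065 CPM in wild type libraries 1 to 3, lowest in both paired-end libraries (log2 ratio -0.30, SE 0.20, adjusted p = 0.562). Fbp1 averaged 978 ± 379 CPM in Atp7b-/- and 1026 ± 209 CPM in wild type livers (SD, n = 3 each; log2 -0.14, adjusted p = 0.831). Pck2 was low, at 4.84, 6.31 and 3.93 CPM in Atp7b-/- libraries 1 to 3, against 2.47, 4.33 and 3.71 CPM in wild type libraries 1 to 3, with a log2 ratio of 0.53 (SE 0.30, adjusted p = 0.484). Per kilobase of exon, Pck1 and Fbp1 were the most abundant of the 46 genes in either genotype, Pck1 at 546 ± 521 in Atp7b-/- and 884 ± 156 in wild type livers and Fbp1 at 574 ± 223 in Atp7b-/- and 603 ± 123 in wild type livers (CPM per kilobase, SD, n = 3 each). In Atp7b-/- libraries the levels of Pck1 and Fbp1 overlapped, while in wild type libraries Pck1, at 779, 809.8 and 1063 CPM per kilobase, lay above Fbp1, at 461, 677 and 669.9. Khk, the entry enzyme of fructose, was the next in wild type livers at 282 per kilobase and was measured at 642, 526 and 231 CPM in Atp7b-/- libraries 1 to 3, against 291, 590.0 and 639.9 CPM in wild type libraries 1 to 3. Its genotypes overlapped (log2 ratio -0.16, SE 0.20, adjusted p = 0.777).

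Clock transcripts differed widely among the libraries, with the same library at the extreme as for Pck1 and Ppp1r3c. Many liver genes of glucose handling follow the daily rhythm and feeding. The mice were kept in a light and dark cycle with free access to food, and the labels do not give the hour of collection. Per1 was measured at 32.9, 107 and 1.76 CPM in Atp7b-/- libraries 1 to 3, against 28.8, 118 and 114 CPM in wild type libraries 1 to 3, and Nr1d1 at 361, 218 and 12.3 CPM in Atp7b-/- libraries 1 to 3, against 64.7, 285 and 132 CPM in wild type libraries 1 to 3. Arntl, which peaks opposite to these, was measured at 10.8, 0.281 and 43.2 CPM in Atp7b-/- libraries 1 to 3, against 3.24, 0.935 and 0.371 CPM in wild type libraries 1 to 3. Atp7b-/- replicate 3 was thus lowest in Per1, Nr1d1, Dbp and Pck1 and highest in Arntl, Ppp1r3c and in Pdk4, the kinase that restrains pyruvate oxidation, whose level there was 36.1 CPM against 1.48 to 6.22 CPM in the other 5 libraries. That library was also the lowest in further members, among them Slc2a2, Slc37a4, Pfkl, Pcx, Fbp1 and Khk. It is the paired-end Atp7b-/- library, and Ppp1r3c was called higher in paired-end libraries (log2 2.53, edgeR adjusted p = 0.00457). Of 14 clock genes 13 were tested, Hlf was called lower (log2 ratio -0.92, SE 0.18, adjusted p = 0.0323), and the call was lost in each of the 6 fits that left out 1 library (adjusted p 0.0569 to 0.196). Arntl and Tef had log2 ratios of 3.38 and -1.24 and were not called (edgeR adjusted p = 0.302 and 0.325). The part of clock phase in the values of the members was not tested.

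**Figure D4:**
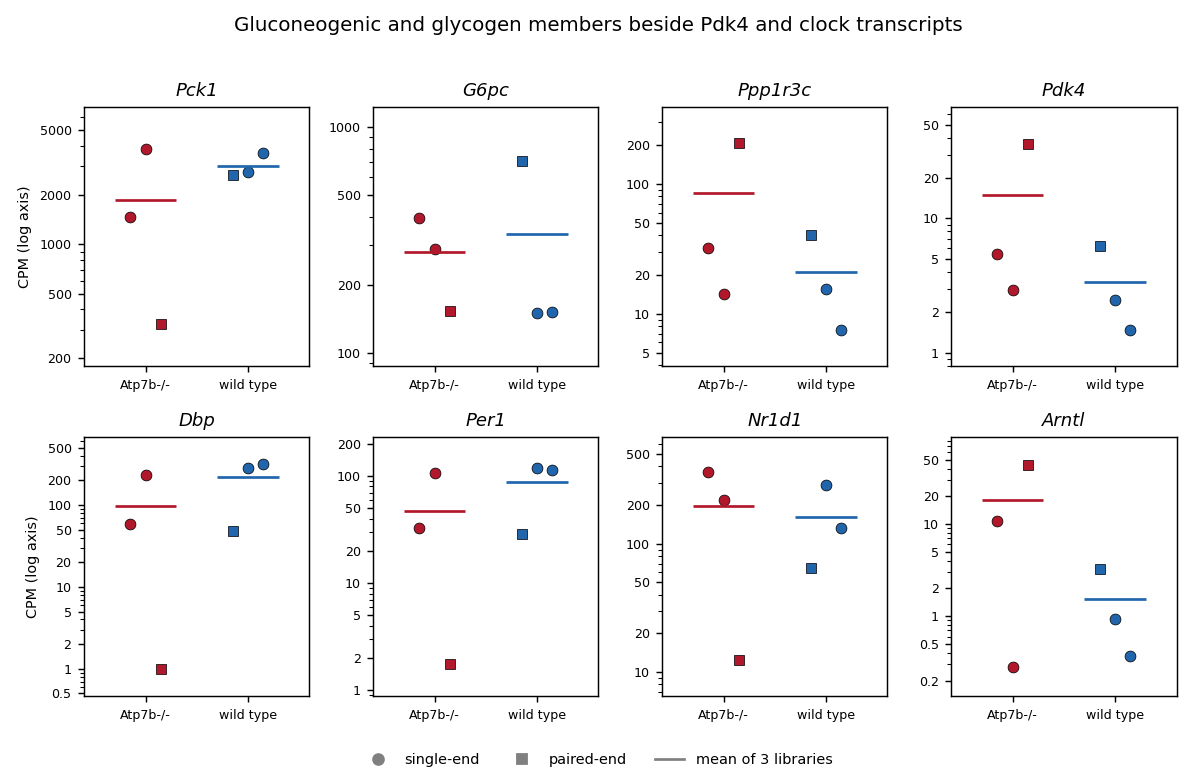
CPM by library (y axes, log scale) of Pck1, G6pc, Ppp1r3c, Pdk4 and 4 clock transcripts, with Atp7b-/- left of wild type, squares for paired-end libraries and a line at the mean of 3. The paired-end Atp7b-/- library is the lowest in Dbp at 0.999 CPM and the highest in Ppp1r3c at 207 CPM.

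Glycogen is built by glycogenin (Gyg), glycogen synthase (Gys2 in liver) and the branching enzyme Gbe1, and none of these was called. Gys2 was measured at 125, 215 and 117 CPM in Atp7b-/- libraries 1 to 3, against 317, 205 and 166 CPM in wild type libraries 1 to 3, and the genotypes overlapped (log2 ratio -0.56, SE 0.33, adjusted p = 0.495). Its genotype difference was -0.17 within the single-end and -1.43 within the paired-end libraries on the scale of log2(CPM + 0.5). Gbe1 was measured at 53, 65.4 and 97 CPM in Atp7b-/- libraries 1 to 3, against 109, 49.3 and 37.4 CPM in wild type libraries 1 to 3 (log2 ratio 0.24, SE 0.22, adjusted p = 0.681). Gyg had a log2 ratio of 0.27 (adjusted p = 0.764), and both genes were called higher in the paired-end libraries. The phosphoglucomutase Pgm1, which joins glycogen to glucose 6-phosphate, varied little, at 227, 209 and 192 CPM in Atp7b-/- libraries 1 to 3, against 184, 203.96 and 175 CPM in wild type libraries 1 to 3 (log2 ratio 0.15, SE 0.18, adjusted p = 0.767). Pgm2 was low and overlapped between genotypes, at 7, 4.07 and 5.03 CPM in Atp7b-/- libraries 1 to 3, against 7.77, 9.52 and 2.6 CPM in wild type libraries 1 to 3 (log2 ratio -0.33, SE 0.44, adjusted p = 0.8).

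Glycogen is broken down by phosphorylase, which phosphorylase kinase activates. The regulatory subunit gene Phka2 of the liver kinase, on the X chromosome, was the other member with separate genotypes, measured at 59.7, 43.8 and 45.9 CPM in Atp7b-/- libraries 1 to 3, against 34.2, 35.9 and 27.4 CPM in wild type libraries 1 to 3. The lowest Atp7b-/- library lay above the highest wild type library. The log2 ratio of 0.61 did not pass the test (SE 0.21, adjusted p = 0.217), and in none of the 15 alternatives run was it called. Its catalytic partner Phkg2 was measured at 11.2, 9.68 and 12.3 CPM in Atp7b-/- libraries 1 to 3, against 15.2, 11.3 and 10.9 CPM in wild type libraries 1 to 3, with overlapping genotypes and a log2 ratio of -0.16 (SE 0.22, adjusted p = 0.794). Phkb, a subunit gene of the kinase outside the 46, had a log2 ratio of 0.59 with overlapping genotypes (SE 0.21, adjusted p = 0.244). Liver phosphorylase Pygl was measured at 554, 374 and 471 CPM in Atp7b-/- libraries 1 to 3, against 532, 422 and 314 CPM in wild type libraries 1 to 3, with overlapping genotypes (log2 ratio 0.16, adjusted p = 0.82). Pygb, the brain form, was low, and per kilobase of exon it stood at 2.34 ± 0.155 in Atp7b-/- and 2.64 ± 1.03 in wild type livers, against 67.6 in Atp7b-/- and 61.3 in wild type livers for Pygl (CPM per kilobase, n = 3 each).

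Protein phosphatase 1 is brought to glycogen by targeting subunits, 3 of which are members, and 2 of these had a small p in opposite directions. Ppp1r3c, also called protein targeting to glycogen, was measured at 31.9, 14.2 and 207 CPM in Atp7b-/- libraries 1 to 3, against 40.3, 15.6 and 7.41 CPM in wild type libraries 1 to 3. In each layout the Atp7b-/- mean lay above the wild type mean, yet across layouts the genotypes overlapped, and Atp7b-/- replicate 3 alone exceeded 100 CPM. The log2 ratio was 1.47 (SE 0.47, adjusted p = 0.222), and 1.00 without Atp7b-/- replicate 3 (adjusted p = 0.423). It passed the threshold without wild type replicate 2 (adjusted p = 0.0257) or Atp7b-/- replicate 2 (0.0454) and by DESeq2 (0.0287). The 4 adipocyte markers, likewise highest in the paired-end libraries, summed to 36.5 CPM in Atp7b-/- replicate 3 and 58.6 CPM in wild type replicate 1, against 5.75 to 7.86 CPM in the single-end libraries, and their part in the Ppp1r3c values was not tested. Ppp1r3b, the subunit most used in liver, was measured at 52.8, 50.9 and 90.4 CPM in Atp7b-/- libraries 1 to 3, against 159, 57.7 and 84.7 CPM in wild type libraries 1 to 3, lower in Atp7b-/- libraries within each layout (log2 ratio -0.58, SE 0.21, adjusted p = 0.244). Ppp1r3g, a subunit that changes with feeding, was measured at 2.1, 8.7 and 0.0344 CPM in Atp7b-/- libraries 1 to 3, against 0.914, 8.58 and 4.63 CPM in wild type libraries 1 to 3, with 1 count behind the lowest value, and its log2 ratio of -1.03 had an SE of 0.82.

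**Figure D5:**
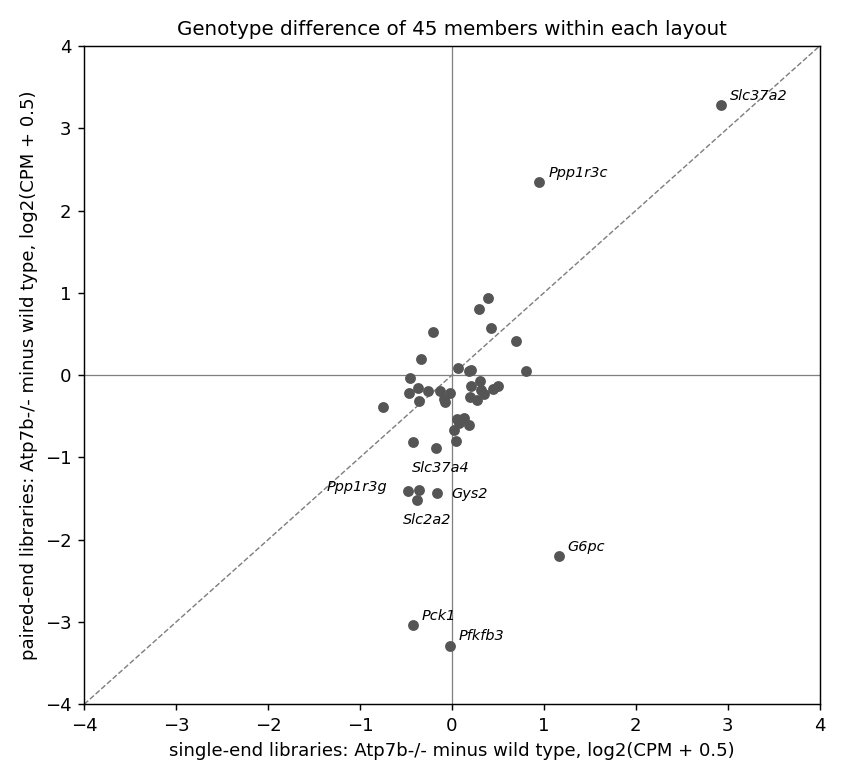
Genotype difference in log2(CPM + 0.5), Atp7b-/- minus wild type, of the 45 tested genes in the single-end libraries (x axis, 2 against 2) and the paired-end libraries (y axis, 1 against 1), with the line of equal values dashed. Slc37a2 lies near the line at 2.93 and 3.28, G6pc is at 1.16 and -2.20, and Pck1 at -0.43 and -3.04.

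Within the layouts, 28 of the 45 members (62.2%) had the same sign of the genotype difference, against 58.1% of all genes. The paired-end difference rests on 1 library of each genotype and has no replicate check.

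Further genes of the same pathways, from lists chosen with earlier results of these data known, gave few calls. Of 12 tested genes of glycolysis and gluconeogenesis outside the 46 none was called, and 2 had an unadjusted p under 0.05. These were the liver pyruvate kinase gene Pklr (log2 ratio -1.02, SE 0.27, adjusted p = 0.104; 259, 242 and 70.2 CPM in Atp7b-/- libraries 1 to 3, against 221, 502 and 316 CPM in wild type libraries 1 to 3) and the muscle enolase gene Eno3 (log2 ratio -1.22, adjusted p = 0.166), which was highest, at 17.2 CPM, in the library with muscle transcripts. DESeq2 called Pklr (adjusted p = 0.0125). Of 14 tested genes of glycogen metabolism 1 was called lower, Pgm5, a relative of phosphoglucomutase found in muscle adhesion sites. It was measured at 1.34, 0.982 and 1.58 CPM in Atp7b-/- libraries 1 to 3, against 20.7, 3.14 and 3.71 CPM in wild type libraries 1 to 3 (log2 ratio -2.41, SE 0.51, adjusted p = 0.0456). The Pgm5 call was lost without wild type replicate 1, the library with muscle transcripts (log2 ratio -1.50, adjusted p = 0.262), without wild type replicate 3 (0.1) and without Atp7b-/- replicates 2 or 3 (0.0906 and 0.181). In the same list Pgm3, which makes the sugar donor of glycosylation, stood at 0.74 (adjusted p = 0.189) with the Atp7b-/- libraries above the wild type ones. Ppp1r3e, a further glycogen-targeting subunit of protein phosphatase 1, had a log2 ratio of -1.52 with overlapping genotypes (SE 0.52, adjusted p = 0.212).

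None of 5 tested sugar transporters, 9 genes of fructose, polyol and galactose metabolism, 10 of the pentose phosphate route or 19 of pyruvate entry and the malate shuttle was called by edgeR, and 1, 3, 1 and 3 of them had an unadjusted p under 0.05. Slc2a8, an intracellular sugar transporter, had a log2 ratio of -0.79 (SE 0.21, adjusted p = 0.112), and was called by DESeq2 (0.0322) and with no count filter (0.0367). Glycerate kinase (Glyctk), on the route by which fructose carbon leaves glyceraldehyde, was measured at 63.7, 89.5 and 72.9 CPM in Atp7b-/- libraries 1 to 3, against 144, 106 and 113 CPM in wild type libraries 1 to 3, every Atp7b-/- library below every wild type one (log2 ratio -0.67, SE 0.21, adjusted p = 0.167). The galactose genes Galk1 and Galm stood at -0.62 and 0.53 (adjusted p = 0.223 and 0.29). In the pentose phosphate list Prps1 had a log2 ratio of -0.52 (SE 0.19, adjusted p = 0.235), every Atp7b-/- library below every wild type one. The pyruvate dehydrogenase kinase genes Pdk4, Pdk2 and Pdk1 had log2 ratios of 1.69, -0.64 and -0.65 (adjusted p = 0.0818, 0.147 and 0.202). Pdk4 was called by DESeq2 (adjusted p = 0.0121), by limma-voom (0.0293), with no count filter (2.25e-05), without Atp7b-/- replicate 2 (0.0373) and without wild type replicate 2 (0.0216), and Pdk2 by DESeq2 (0.0197). Among 26 genes that control hepatic glucose genes, 22 had a negative log2 ratio, with a median of -0.34 against -0.0087 over all genes. An unadjusted edgeR p under 0.05 was found in 4 of the 26, all lower, which is 15.4% against 14.5% of all genes. The transcription factor Myc fell, at 5.11 ± 2.04 CPM in Atp7b-/- and 47.2 ± 14.9 CPM in wild type livers (SD, n = 3 each; log2 -3.25, SE 0.21, edgeR adjusted p = 0.000411), and the other 25 did not pass the test, among them Srebf1 at -1.002 and Cebpa at -0.93 (adjusted p = 0.0997 and 0.166). DESeq2 called Srebf1 (adjusted p = 0.0109), and edgeR with no count filter called Srebf1 (0.00231) and Cebpa (0.0111).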

How the data were processed

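Total RNA of liver was sequenced in 6 libraries with reads of 54 bases. The authors deposited raw counts per Ensembl gene, 1 column a library, with no normalization. STAR 2.4, featureCounts and edgeR 3.8, with GRCm38, are named in the submitters' processing notes. Not given in the sources used here are the annotation, strandedness and treatment of reads with several matches. Symbols, coordinates and exon lengths came from GENCODE M21 (GRCm38), which lacked 1048 of the 41388 identifiers.

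The test was the robust quasi-likelihood one of edgeR 4.0.16 (R 4.3.3; filter at a minimum count of 10, TMM scaling, terms for layout and genotype, Benjamini-Hochberg over 12988 genes, called at 0.05). The script was tested on simulated data. Each standard error is the size of the log2 ratio over the root of its F value. CPM used TMM-scaled library sizes, and levels per kilobase the union of exons. Alternatives were DESeq2 1.42.0, limma-voom (limma 3.58.1), other scalings and filters, other terms and leaving out each library. Replicate numbers follow the order of deposition. The 46 genes, the further lists and the alternatives were chosen with earlier results of these data known. Described in full were called members and the 2 of smallest p per role, and outside the members up to 3 of smallest p per list. Some further genes, among them the clock genes Per1, Nr1d1 and Dbp, were described outside this rule. Depth per library limits precision for genes with few counts, such as Fbp2 and Ldhb.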

Additional observations from a re-analysis of the deposited data

How the results depend on the processing

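The 1 member called higher became 2 with no count filter, 2 by DESeq2, 0 with no layout term and 0 where labelled sex replaced it, and 1 to 2 when 1 library was left out. The members called lower, 0 in edgeR, became 1 with no count filter and 1 by DESeq2, and 0 to 1 when 1 library was left out. The genes gained were Ppp1r3c and Slc2a2 with no count filter and Ppp1r3c and Pfkl by DESeq2. Over all genes, the 323 calls became 1116 with no count filter, 215 with a minimum count of 50, 770 by DESeq2, 126 in the single-end libraries, 0 with no layout term and 0 where labelled sex replaced it, and 119 to 323 when 1 library was left out. In the 2 fits with 0 calls, 545 and 381 genes, and 1 member in each, had an unadjusted p under 0.05. Members whose genotype change differed between layouts numbered 0 in edgeR, 2 by DESeq2 and 2 with no count filter. The cause of these shifts was not tested. Of 673 member and alternative pairs, 664 kept their side of the threshold, 7 gained a call, 2 lost it and none reversed. Lengths by the longest transcript moved the wild type level per kilobase of 18 members beyond its SD. Slc37a2 then stood at 5.74 in Atp7b-/- and 0.623 in wild type livers, and Slc37a3 at 7.55 in Atp7b-/- and 7.11 in wild type livers. No paired analysis was possible because replicate numbers were given by accession order, which pairs no samples.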
